A study of Mus musculus with 15 samples.

Results

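Heat shock proteins and other chaperones bind unfolded or partly folded proteins and help them to fold, to cross membranes or to be degraded. The set described here holds every mouse gene whose single annotated symbol begins with Hsp followed by a, b, d, e, h or 9, with Dnaj, or with Cct and a digit. It comprises 55 of the 8251 genes represented on the array, measured by 77 probe sets, of which the brightest of each gene was used. By the known location of their proteins, 38 act in the cytosol or nucleus, 7 in the endoplasmic reticulum (ER), 7 in mitochondria and 3 elsewhere. No filter on dim signals was applied, so all 55 were tested. The signal of 39 members was 100 or more on every array, and that of 6 members was under 100 on every array.

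RAW264.7, a mouse macrophage-like cell line, was grown in alpha-MEM with serum and treated on days 0 and 3 with RANKL made up in serum-free medium, or without it. RANKL is the cytokine that turns macrophage precursors into bone-resorbing osteoclasts. For control cells, which had no RANKL, there were single arrays for days 1 and 5 and pairs (2 arrays) for days 2, 3 and 4. For cells with RANKL there was a single array for day 1 and a pair for days 2, 4 and 5. The labels describe the RANKL cells as mononuclear on days 1 and 2 and as multi-nuclear on days 4 and 5. They give no dose of RANKL, and they do not state that the arrays of a group came from separate cultures, so the spread between arrays may be technical and the p-values then measure only that spread. All groups are of 1 cell line grown in the same medium. Osteoclast markers separated the arms at the later days: the summed signal of 6 osteoclast genes (2 of them under 100 on every array) was 16555 to 31168 on the 4 RANKL arrays of days 4 and 5 and 1064 to 1543 on the 3 control arrays of those days. The summed signal of the 8 macrophage markers was 21649 to 38464 on the 13 arrays of days 1, 2, 4 and 5, with 1 of the 8 under 100 on every array. Sums of T cell, B cell, neutrophil and erythroid markers were at most 394 on those arrays. That of stromal and osteoblast markers ran from 934 to 1631, with 1 of 4 under 100 everywhere.

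Chaperones work as machines with partners. HSP70 proteins bind short greasy stretches of a client protein, J proteins (the Dnaj family) bring clients and trigger ATP use, and HSP110 proteins such as Hsph1 and nucleotide exchange factors such as Hspbp1 release the nucleotide so that the client can leave. HSP90 completes the folding of kinases and receptors, and the CCT ring encloses actin and tubulin while they fold. Heat shock factor 1 switches on the cytosolic and mitochondrial genes when unfolded protein builds up in the cytosol, through heat shock elements made of alternating GAA and TTC units. In the ER, Hspa5 (BiP) and Hsp90b1 (GRP94) fold secreted and membrane proteins, and the unfolded protein response induces them through the ER stress response element. In mitochondria, Hspa9 pulls proteins in through the membranes, and the Hspd1 and Hspe1 chamber folds them.

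The promoters of members that moved, or that define a compartment, are shown because they carry these elements. Sequences are those of RefSeq on GRCm38.p6, in windows of 300 bases from 250 before to 50 after the gene's start. A window was found for 47 of the 55 members. Each motif was searched on both strands. The heat shock element of 3 units, GAANNTTCNNGAA, was in the windows of 4 members (Hsph1, Hspe1, Hspd1 and Dnajb6) and in 0.603% of all promoters. The shorter form of 2 units, GAANNTTC, which every 3-unit match also contains, was in 10 members and in 7.86% of all promoters. The ER stress response element, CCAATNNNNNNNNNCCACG, was in 3 of the 7 ER members (Hspa5, Hsp90b1 and Dnajc3), in 0 of the other 40 and in 0.119% of all promoters. Counted by gene, as the members are, these shares were 0.662%, 9.04% and 0.137% of the 27025 genes with a window. A match describes letters and not a site in use. Matches are in capitals, each sequence reads in the direction of its gene, and the matches in Hspe1 overlap.
Hsph1, chr5:149636280-149636308, minus strand, from 15 to 27 bases after the start: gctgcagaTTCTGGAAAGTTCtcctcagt
Hspe1, chr1:55088014-55088121, plus strand, 3 units: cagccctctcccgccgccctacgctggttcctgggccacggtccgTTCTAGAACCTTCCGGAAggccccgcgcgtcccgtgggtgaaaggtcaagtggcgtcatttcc
Dnajb6, chr5:29735807-29735897, plus strand, 3 units: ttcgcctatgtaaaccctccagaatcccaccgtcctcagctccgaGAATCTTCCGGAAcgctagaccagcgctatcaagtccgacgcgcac
Hspa1b, chr17:34959290-34959387, minus strand, 2 units: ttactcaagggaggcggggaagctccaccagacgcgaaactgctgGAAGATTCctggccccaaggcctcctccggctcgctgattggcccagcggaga
Hspa5, chr2:34771980-34772088, plus strand, ER stress response element: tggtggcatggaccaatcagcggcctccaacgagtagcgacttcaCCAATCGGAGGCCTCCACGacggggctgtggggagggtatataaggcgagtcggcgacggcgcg
Hsp90b1, chr10:86705488-86705694, minus strand, ER stress response element on both strands: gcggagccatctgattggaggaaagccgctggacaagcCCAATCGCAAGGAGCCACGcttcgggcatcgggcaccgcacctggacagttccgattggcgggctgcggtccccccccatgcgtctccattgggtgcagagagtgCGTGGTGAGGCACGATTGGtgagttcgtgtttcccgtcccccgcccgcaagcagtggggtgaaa
Dnajc3, chr14:118937782-118937890, plus strand, ER stress response element: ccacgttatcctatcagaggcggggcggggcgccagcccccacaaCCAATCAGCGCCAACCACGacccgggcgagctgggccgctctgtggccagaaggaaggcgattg

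Of the genes shown with a heat shock element, Hsph1, Hspe1 and Hspa1b fell between the early and the late days of culture and Dnajb6 rose. They were shown because they moved. The other members with a match (Cct2, Dnaja1, Hspa1a, Hspb1, Hspb8 and Hspd1) did not pass with culture time. The genes shown with the ER element did not pass the test either. Values follow by compartment. Signals are given on the linear MAS5 scale, on which the 2% trimmed mean is 500 on each array. Changes are differences of log2(signal + 32) with the standard error from limma, which understate the change of dim genes, and a call means a limma adjusted p under 0.05 over all 12422 probe sets.

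The comparison with culture time asks what differed between days 4 and 5 and days 1 and 2, averaged over control and RANKL cells. Here 21 of the 55 members passed, 8 higher and 13 lower, which is 38.2% against 22.7% of all probe sets and 26.1% of the probe sets that represent genes. Of all probe sets, 13.1% were higher and 9.6% lower, and of the gene probe sets 14.9% and 11.2%. Calls were more frequent among brighter probe sets: 2780 of 6211 passed when the brighter 50% were tested alone. The members were not set beside probe sets of like signal. Falls were as frequent inside as outside the cytosol (9 of 38, or 23.7%, and 4 of 17, or 23.5%), while rises numbered 2 of 38 and 6 of 17; this difference was not tested. The cytosolic median change was -0.14, beside -0.00 over all probe sets. Among ER members 3 were higher and 1 lower of 7, with a median of -0.05. Among mitochondrial members 1 was higher and 2 lower of 7, with a median of -0.02. In RNA from whole cultures, fewer cells of a kind and less RNA per cell cannot be told apart.

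**Figure D1:**
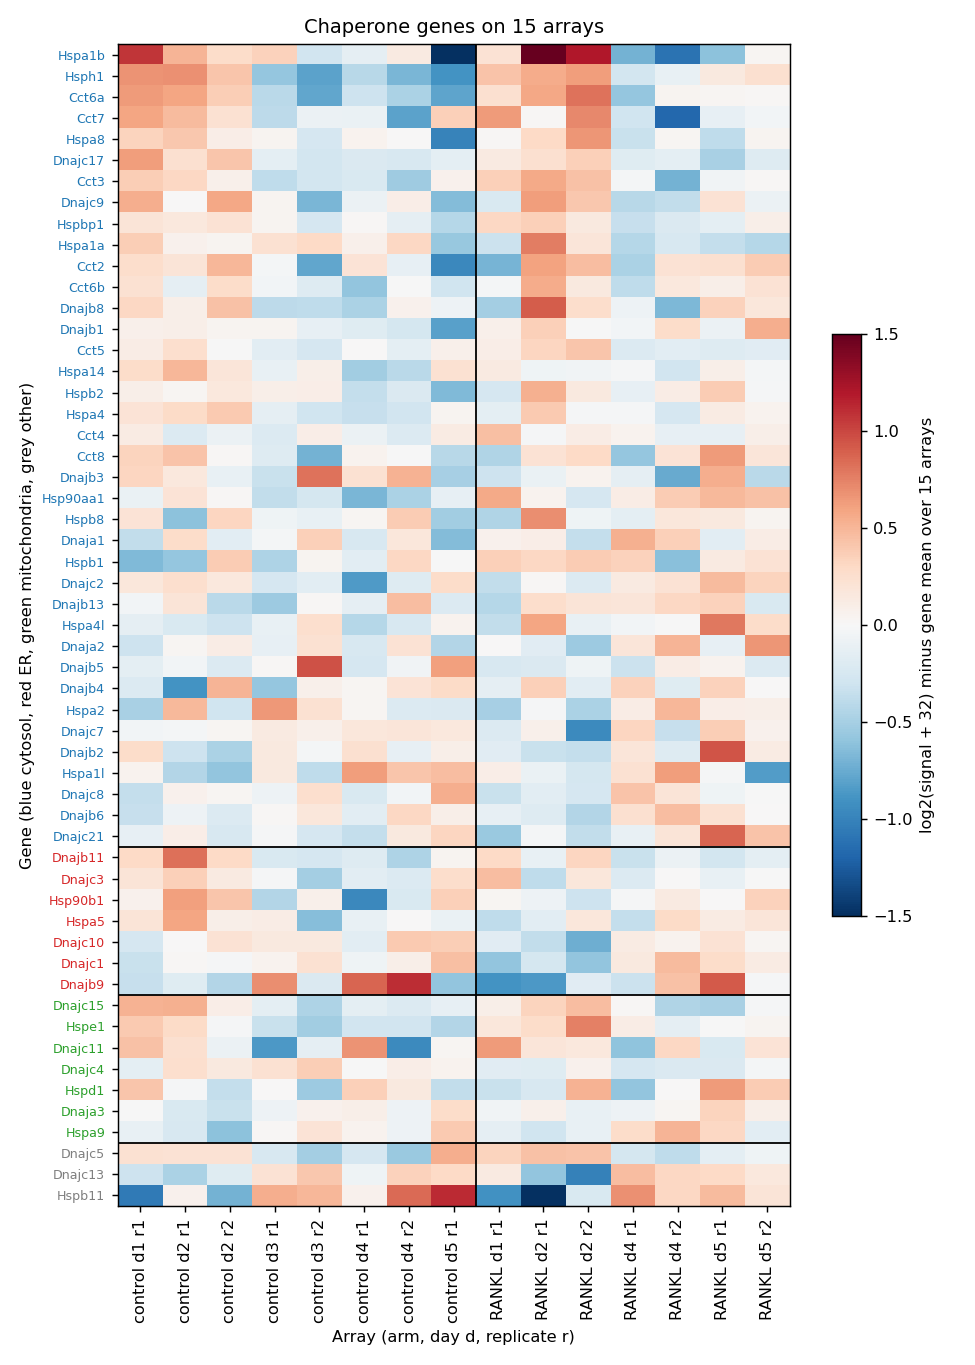
Heat map of log2(signal + 32) minus the gene's mean over 15 arrays, for the 55 members (rows, by compartment and then by change with culture time) on each array (columns, by arm, day d and replicate r); red is above and blue below the mean, and colours stop at 1.5 either way. Hspa1b, Hsph1 and Cct6a are red on the arrays of days 1 and 2 and mostly blue or pale afterwards, while Hspb11 runs the other way.

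Members of the HSP70 cycle come first. Hsph1 (98111_at), the HSP110 protein that helps HSP70 to release its clients, had signals of 4174 at day 1, 4230 and 3482 at day 2, 1731 and 1478 at day 3, 1953 and 1610 at day 4 and 1385 at day 5 in control cells. In RANKL cells they were 3523 at day 1, 3850 and 4057 at day 2, 2157 and 2407 at day 4 and 2896 and 3098 at day 5. Every array of days 4 and 5 lay below every array of days 1 and 2, in both arms together. The change was -0.92 ± 0.10 (limma adjusted p = 0.000118), and it was -1.33 ± 0.15 in control cells and -0.51 ± 0.13 in RANKL cells taken alone. Those arm values come from separate comparisons, and the test of their difference did not pass (0.83 ± 0.20, limma adjusted p = 0.347).

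Hspa1b (100946_at), the classic inducible HSP70, gave control signals of 461 at day 1, 302 and 253 at day 2, 267 and 161 at day 3, 182 and 227 at day 4 and 8.35 at day 5. Cells with RANKL read 240 at day 1, 688 and 507 at day 2, 112 and 77.2 at day 4 and 122 and 208 at day 5. Early and late arrays did not overlap here either. The change was -1.71 ± 0.19 (3.26-fold lower, limma adjusted p = 0.000125), and it was -1.07 without the dim control day 5 array. Hspa1a (93875_at), the neighbouring gene of nearly the same coding sequence, had late signals from 63.3 to 143 and early ones from 80.4 to 208, and its change of -0.42 ± 0.16 did not pass (limma adjusted p = 0.0973). Since probes of such a pair can bind RNA of both genes, the split between them is uncertain.

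Hspa8 (96564_at), the abundant constitutive HSP70, had early signals from 6561 to 10302 (median 8074) and late ones from 3205 to 6703 (median 6484). The lowest of all was control day 5, and the ranges overlapped between 6561 and 6703. Its change was -0.60 ± 0.13 (limma adjusted p = 0.00626), and it no longer passed without control day 5 (-0.34). Hspbp1 (100987_f_at), a nucleotide exchange factor of HSP70, fell by less but without overlap, from 872 to 1017 early to 578 to 839 late (-0.43 ± 0.10, limma adjusted p = 0.00957). Hspa4 (92571_at), another HSP110 protein, changed by -0.23 ± 0.10 and did not pass (limma adjusted p = 0.146). Its 5 probe sets disagreed, with -0.59 for 161745_f_at and 0.67 for 96594_at, both past the threshold, so no direction can be given for Hspa4.

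The HSP90 gene and the other textbook heat shock genes of the cytosol did not pass with culture time. Hsp90aa1 (95282_at), the inducible HSP90, had early signals from 3912 to 6969 and late ones from 2910 to 6570, with a change of -0.12 ± 0.11 (limma adjusted p = 0.508). Dnajb1 (96254_at), the main J protein of the stress-induced HSP70, changed by -0.27 ± 0.14 (limma adjusted p = 0.219), between 362 and 471 early and 193 and 541 late. Dnaja1 (97261_at), a farnesylated J protein, changed by 0.03 ± 0.14. The small heat shock protein gene Hspb1 (92853_at) was dim, with at most 43.8 on any array, and changed by 0.04 ± 0.21.

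The 8 represented CCT genes all had negative changes, with a median of -0.30, and 3 passed (37.5%). Of all probe sets 49.2% had positive changes and 22.7% passed. Cct6a (162279_f_at), a ring subunit, had signals of 1802 at day 1, 1741 and 1484 at day 2, 858 and 650 at day 3, 919 and 813 at day 4 and 649 at day 5 in control cells. Cells with RANKL read 1360 at day 1, 1729 and 2033 at day 2, 755 and 1173 at day 4 and 1164 and 1160 at day 5. No late array reached the lowest early one, and the change was -0.87 ± 0.13 (limma adjusted p = 0.000606). Its other probe set, 160459_r_at, changed by -0.29 ± 0.22 and did not pass.

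Cct3 (98446_s_at) went from 6452 to 9111 on the early arrays to 3754 to 6414 on the late ones, also without overlap (-0.53 ± 0.13, limma adjusted p = 0.0125). Its other probe sets fell by more, at -1.0 and -0.75, both past the threshold. Cct7 (160562_at) fell by 0.72 ± 0.19 on the log2 scale (limma adjusted p = 0.0183), from a median of 8396 to a median of 5303 with overlapping ranges. The call for Cct7 ended without both day 1 arrays (limma). The remaining ring genes gave -0.30 for Cct2, -0.29 for Cct6b, -0.26 for Cct5, -0.14 for Cct4 and -0.13 for Cct8, none past the threshold, although a second Cct5 probe set (161514_at) passed at -0.82 ± 0.15. The Cct6b signal was under 100 on 14 of the 15 arrays.

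Among cytosolic J proteins the directions were mixed. Dnajc17 (160730_at), a nuclear J protein with an RNA-binding motif, fell from 321 to 463 on the early arrays to 196 to 258 on the late ones, without overlap (-0.57 ± 0.12, limma adjusted p = 0.00508). Dnajc9 (160203_at), which handles histones, changed by -0.52 ± 0.15 (limma adjusted p = 0.0252), with ranges of 1001 to 1847 and 743 to 1378, and lost its call without control day 1, control day 2 replicate 2, control day 4 replicate 1 or control day 5. Dnajc8 (95699_f_at), a splicing-associated J protein, rose by 0.38 ± 0.10 (limma adjusted p = 0.0173), from a median of 4074 to 4672. Its call was lost without control day 1 or control day 5, where it was as low as 0.21. Dnajb6 (96120_at), which keeps aggregation-prone proteins soluble, rose by 0.39 ± 0.11 (limma adjusted p = 0.0267), from 1460 to 1877 early to 1776 to 2754 late, a call lost in 7 of 24 settings. The second probe sets of Dnajc8 (0.71 ± 0.20) and Dnajb6 (0.45 ± 0.13) passed in the same direction. Over all 27 J proteins of any compartment, 6 were higher (22.2%) and 5 lower (18.5%). Of all probe sets 13.1% were higher and 9.6% lower.

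**Figure D2:**
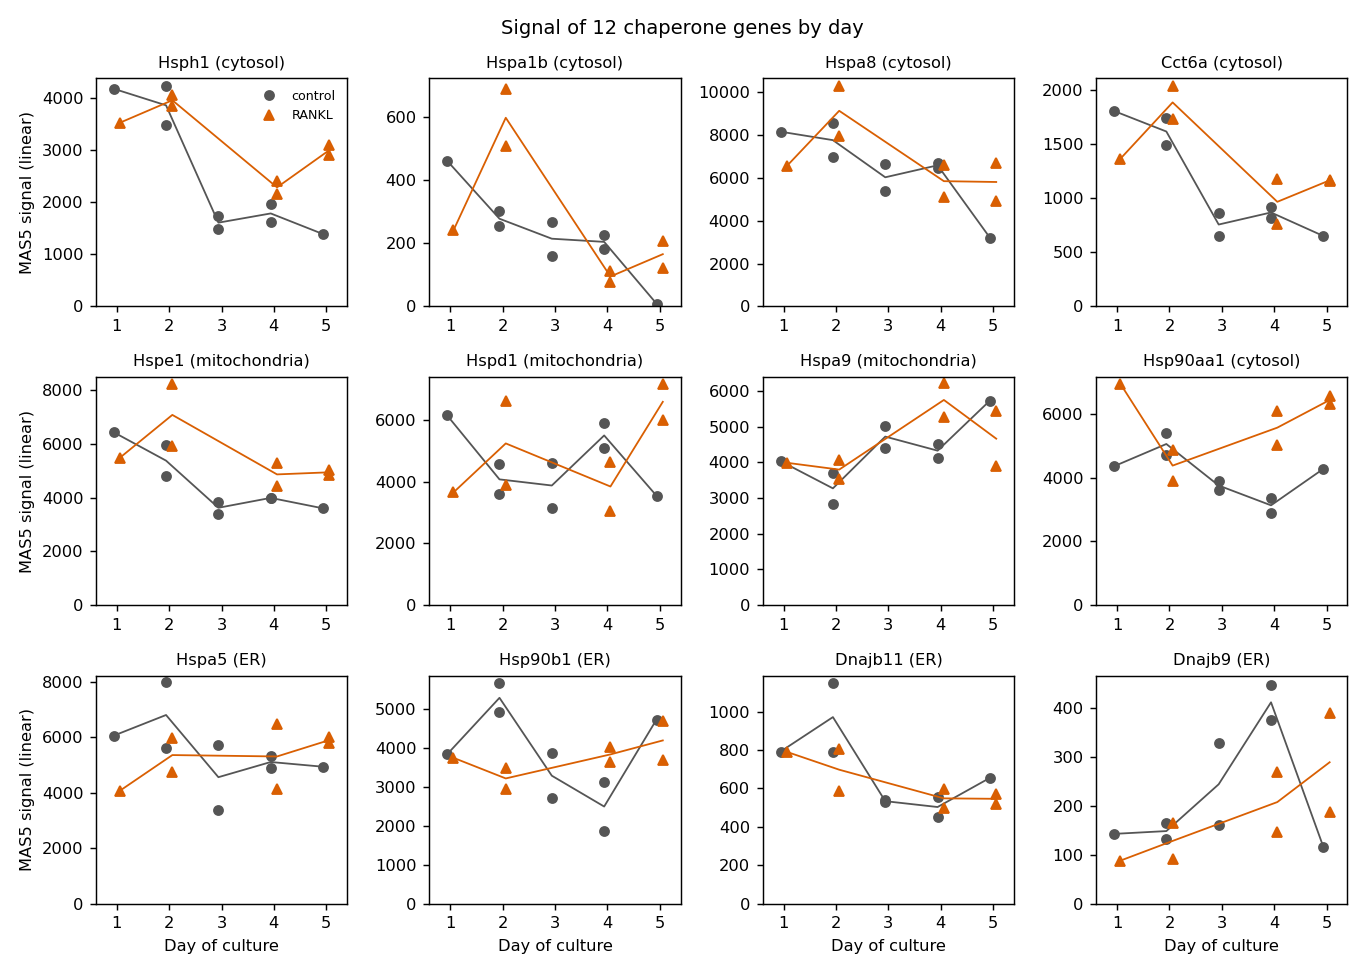
Linear MAS5 signal of 12 members by day of culture, with grey circles for control arrays and orange triangles for RANKL arrays (1 or 2 arrays a day in each arm); lines join the daily means and there is no RANKL point at day 3. Hsph1 and Cct6a drop between day 2 and day 3 in control cells, Hspa8, Hspe1 and Hspa1b are lower late, and Hspa5 and Hsp90b1 show no common direction.

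In the ER, the central chaperones did not move together with culture time. Hspa5 (101955_at), the HSP70 of the ER, gave control signals of 6065 at day 1, 7989 and 5632 at day 2, 5746 and 3388 at day 3, 4909 and 5320 at day 4 and 4944 at day 5. Cells with RANKL read 4081 at day 1, 4760 and 5970 at day 2, 4138 and 6491 at day 4 and 5790 and 6022 at day 5. The arms and days overlapped widely, and the change was -0.05 ± 0.17 (limma adjusted p = 0.889). Hsp90b1 (160499_at), the HSP90 of the ER, ranged from 2951 to 5659 early and from 1862 to 4729 late, with a change of -0.10 ± 0.15 (limma adjusted p = 0.715). Dnajc3 (102414_i_at), a J protein that also restrains the kinase PERK, changed by -0.22 ± 0.14 and did not pass, while its probe set 94343_at passed at 0.74 ± 0.22, so its direction is unsettled.

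Other J proteins of the ER did pass. Dnajb11 (98572_at), a BiP partner for secreted proteins, gave 792, 1150 and 792 on the early control arrays and 554, 453 and 655 on the late ones. In RANKL cells it gave 790, 588 and 806 early and 498, 598, 519 and 573 late. Only the RANKL day 2 array at 588 fell inside the late range, and the change was -0.49 ± 0.13 (limma adjusted p = 0.0171). Dnajb9 (96680_at), a BiP partner tied to ER-associated degradation, rose by 0.74 ± 0.24 (limma adjusted p = 0.0479), with control signals of 376 and 448 at day 4 but 116 at day 5, without which the rise was 1.14. Its other probe set agreed in size (0.76 ± 0.24, limma adjusted p = 0.0373). The call for 96680_at was lost in 14 of 24 alternative settings.

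Dnajc1 (103344_at), a membrane J protein of the ER, rose by 0.58 ± 0.13 (limma adjusted p = 0.00583), from 198 to 319 early to 299 to 449 late. Its probe set 94800_at had the opposite sign (-0.24 ± 0.12, limma adjusted p = 0.206). Dnajc10 (160144_at), a disulfide reductase that unfolds proteins bound for degradation, rose by 0.39 ± 0.12 (limma adjusted p = 0.0368), a call lost in 15 of 24 settings.

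Mitochondrial members split as well. Hspe1 (92829_at), the lid of the folding chamber, had signals of 6442, 5956 and 4810 on the early control arrays and 3989, 4000 and 3604 on the late ones. In RANKL cells they were 5494, 5925 and 8251 early and 5290, 4450, 4866 and 5031 late. Late arrays were lower within each arm, and the change was -0.48 ± 0.12 (limma adjusted p = 0.0106). Hspd1 (93277_at), the chamber itself, whose gene lies head to head with Hspe1, had 3595 to 6617 early and 3061 to 7198 late and changed by 0.02 ± 0.17 (limma adjusted p = 0.968).

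Dnajc15 (97204_s_at), a J protein of the inner membrane import motor, fell from 605 to 840 on the early arrays to 397 to 576 on the late ones, without overlap (-0.52 ± 0.14, limma adjusted p = 0.0185). Hspa9 (97914_at), the mitochondrial HSP70, went the other way (0.43 ± 0.12, limma adjusted p = 0.0245), from a median of 3845 to one of 5285. The call for Hspa9 was lost without control day 5, control day 4 replicate 1 or control day 2 replicate 2, with changes of at least 0.33. Dnajc11 (103903_at), of the inner membrane organizing system, gave -0.40 ± 0.28, Dnaja3 (97868_at), the matrix J protein, 0.21 ± 0.09, and Dnajc4 (102324_at) -0.02 ± 0.13, all 3 short of the threshold.

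The 3 members outside these compartments all passed, 2 higher and 1 lower, against 22.7% of all probe sets. Hspb11 (104085_at), which despite its name is a subunit of the intraflagellar transport machinery of cilia, had early signals of 146, 355 and 194 in control cells and 164, 65.6 and 282 in RANKL cells. Late signals were 353, 634 and 770 in control cells and 561, 427, 480 and 388 in RANKL cells. The ranges met only at 353 and 355, and the rise was 1.44 ± 0.27 (limma adjusted p = 0.00285). Dnajc13 (94422_at), an endosomal J protein, rose by 0.59 ± 0.14 (limma adjusted p = 0.00891), and Dnajc5 (93211_at), the cysteine string protein of secretory vesicles, fell by 0.38 ± 0.10 on the log2 scale (limma adjusted p = 0.0194), although its highest late signal, 1008 at control day 5, was the highest of all. Without that array the Dnajc5 change was -0.61.

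Over the 6 early and 7 late arrays, 7 members were lower late without overlap, which is 6 cytosolic genes and Dnajc15, and 0 were higher. Among all probe sets 3.65% were lower and 3.69% higher without overlap. RNA quality moved with culture time: the signal of the 3' beta-actin probe set over that of the 5' one was 1.17 to 1.39 on the early arrays and 1.01 to 1.34 on the late ones. With that ratio as a covariate, 5 of the 21 calls remained (Hsph1 at -0.90, Hspa1b at -1.90, Cct3 at -0.88, Dnajb9 at 1.47 and Hspb11 at 1.81), and 1021 of all probe sets passed. Macrophage markers also moved, with 3 of 8 higher late and 0 lower, as did osteoclast markers, with 2 of 6 higher and 1 lower in both arms together. The part of these markers in the chaperone changes was not tested.

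**Figure D3:**
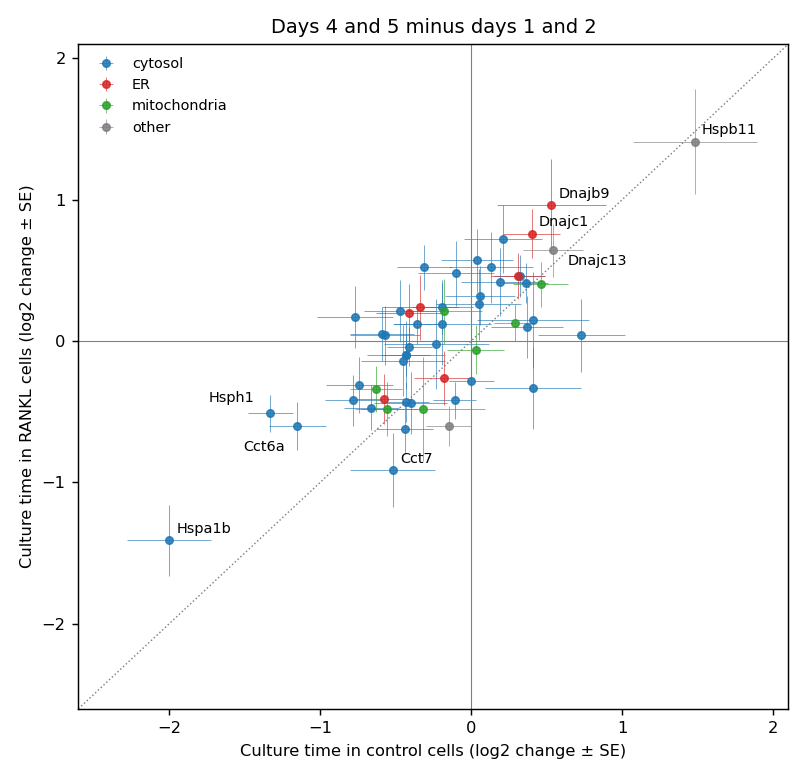
Change with culture time (days 4 and 5 minus days 1 and 2, log2 scale, bars are ± SE from limma) in control cells on the x axis and RANKL cells on the y axis, for the 55 members by compartment, with the dotted line where both are equal. Hspa1b, Hsph1 and Cct6a lie low and Hspb11 high in both arms; the arms share no arrays.

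Within control cells alone, 7 of 55 members passed with culture time, or 12.7% against 10.9% of all probe sets (5.98% higher and 4.87% lower). With the brighter 50% of probe sets tested alone, 1630 of 6211 passed. Hspb11 rose by 1.48 ± 0.41. The falls were those of Hspa1b (-2.0 ± 0.28), Hsph1, Cct6a (-1.15 ± 0.19), Hspa8 (-0.78 ± 0.19), Dnajc17 (-0.66 ± 0.18) and Hspe1 (-0.63 ± 0.17). Without the day 5 array the Hspa1b change was -0.73 and that of Hspa8 -0.27, and neither passed. The calls of Hspe1 and Hspb11 were also lost without that array. The Hsph1 call was kept in all 25 settings, while those of Cct6a, Hspa8, Dnajc17, Hspe1 and Hspb11 were lost in 2, 7, 9, 11 and 11. Of the osteoclast markers 2 of 6 fell in these cells. The count of 7 chaperone members became 3 without control day 1. It was also lower without control day 2 replicate 1 or either control day 4 array.

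Within RANKL cells, 10 of 55 passed, or 18.2% against 14.8% of all probe sets (8.98% higher and 5.82% lower). With the brighter 50% of probe sets tested alone, 2190 of 6211 passed. Hspa1b (-1.41 ± 0.25), Cct7 (-0.91 ± 0.26), Cct3 (-0.62 ± 0.18), Cct6a (-0.60 ± 0.17), Dnajc5 (-0.60 ± 0.14) and Hsph1 (-0.51 ± 0.13) fell. Hspb11 (1.41 ± 0.37), Dnajc1 (0.76 ± 0.17), Dnajc13 (0.64 ± 0.19) and Dnajc2 (104738_at), a ribosome-bound J protein (0.52 ± 0.16, limma adjusted p = 0.0495), rose. The Hspa1b call was kept in all 24 settings. Calls were lost in 1 for Dnajc5, 2 for Dnajc1, 3 for Hspb11, 5 for Hsph1, 10 for Dnajc13, 11 each for Cct3 and Cct7, 12 for Cct6a and 18 for Dnajc2. Of the osteoclast markers 3 of 6 rose in these cells. The count of 10 chaperone members fell without RANKL day 5 replicate 1 or RANKL day 2 replicate 2. It also fell without either RANKL day 4 array or either control day 2 array.

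The days around the second treatment, on day 3, were compared after the values were seen. In control cells between day 2 and day 3, Hsph1 fell by 1.25 ± 0.17 on the log2 scale (limma adjusted p = 0.00367) and Cct6a by 1.07 ± 0.22 (limma adjusted p = 0.0163). These were 2 of 55 members, or 3.64% against 7.08% of all probe sets (2.99% lower). The count was 0 without control day 2 replicate 1, and 1 without control day 2 replicate 2 or control day 3 replicate 2. In RANKL cells between day 2 and day 4, 12 of 55 passed, 4 higher and 8 lower. That is 21.8% against 12.5% of all probe sets (7.08% higher and 5.45% lower). With the brighter 50% of probe sets tested alone, 1844 of 6211 passed. Hspa1b (-2.31 ± 0.32), Cct7 (-1.11 ± 0.33), Cct6a (-0.97 ± 0.22), Dnajc9 (-0.91 ± 0.25), Cct3 (-0.87 ± 0.22), Hsph1 (-0.79 ± 0.17), Dnajc5 (-0.76 ± 0.17) and Cct5 (-0.55 ± 0.16) were lower at day 4. Hspb11 (1.57 ± 0.47), Dnajc13 (1.19 ± 0.24), Dnajc1 (0.74 ± 0.21) and Dnajb6 (0.67 ± 0.19) were higher. Calls were lost in 0 of 24 settings for Hspa1b, 1 for Dnajc13, 2 for Hsph1, 3 for Cct6a and for Dnajc5, 4 for Cct3, 8 for Dnajc9, 11 for Cct7, 13 for Dnajb6, 15 for Dnajc1 and for Hspb11, and 16 for Cct5. The Hspb11 value ran from 0.73 without RANKL day 2 replicate 1 to 2.42 without replicate 2. The count of 12 became 2 when replicate 2 of RANKL day 2 was left out, 5 and 4 for replicates 1 and 2 of RANKL day 4, and 7 for any 1 of the control arrays of days 2 and 3.

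RANKL itself, compared with control cells of the same day and averaged over days 1, 2, 4 and 5, called 0 of 55 members, against 1.09% of all probe sets. By limma 4 members had an unadjusted p under 0.05, all positive and all cytosolic, which is 7.27% against 11.1% of all probe sets. Hsp90aa1 came nearest (0.47 ± 0.11, limma adjusted p = 0.0658). Its signals with RANKL were 6969 at day 1, 4866 and 3912 at day 2, 5050 and 6118 at day 4 and 6570 and 6337 at day 5. Control signals were 4368, then 5413 and 4725, then 2910 and 3367, then 4287 on the same days. RANKL arrays were the higher ones on days 1, 4 and 5 but not on day 2, and 3 of the 6 RANKL arrays of days 2, 4 and 5 lay above all 5 control arrays of those days. With the upper 50% of probe sets Hsp90aa1 passed (limma adjusted p = 0.0335), and with the mean over its probe sets its difference was 0.12 and did not pass.

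The other 3 were Dnajb1 (0.37 ± 0.14), Dnaja1 (0.34 ± 0.14) and Hsph1 (0.31 ± 0.10). Hsph1 passed at 0.50 when control day 1, RANKL day 1 or both were left out (limma adjusted p = 0.0262 without both). The 7 ER members were all negative over the 4 days, from -0.21 for Dnajc10 to -0.07 for Hsp90b1, with a median of -0.16, none past the threshold and a smallest adjusted p of 0.58. Mitochondrial members ran from -0.18 for Dnajc4 to 0.22 for Hspe1 with a median of 0.03. Dnajc4 lay below all 5 control arrays on 5 of the 6 RANKL arrays of days 2, 4 and 5, by little: 200 to 256 against 244 to 295 (limma adjusted p = 0.695). The median change over all 55 members was -0.00, and over all probe sets it was 0.01.

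By day, 0 members passed at day 1 (against 0 of all probe sets), at day 2 (against 0.853%) and at day 4 (against 0.266%). At an unadjusted p under 0.05, limma gave 2 members at day 1 (3.64% against 5.86% of all probe sets), 3 at day 2 (5.45% against 10.1%) and 6 at day 4 (10.9% against 8.13%). At day 2 the differences of all 7 ER members were negative and those of all 8 CCT genes positive. Their medians were -0.43 and 0.21, and none passed the threshold. Of all probe sets, 51.2% had positive differences at that day. Leaving out 1 array moved the ER median between -0.55 and -0.23, the latter without RANKL day 2 replicate 1, and control day 2 replicate 1 had a like effect. Hsp90b1 (-0.71 ± 0.26, limma adjusted p = 0.326) and Dnajc10 (-0.66 ± 0.20, limma adjusted p = 0.235) had the largest ER differences at that day. Hsp90b1 signals were 3485 and 2951 with RANKL and 5659 and 4916 without. By day 4 the same gene gave 3638 and 4032 with RANKL against 1862 and 3131 (0.66 ± 0.26, limma adjusted p = 0.509), and the ER median was 0.08.

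Hspa1b also had opposite differences on those days, at 1.01 ± 0.32 at day 2 and -0.91 ± 0.32 at day 4, with limma adjusted p of 0.246 and 0.438. RANKL gave 688 and 507 against 302 and 253 at day 2, and 112 and 77.2 against 182 and 227 at day 4. The RANKL pair was above the control pair at the first of these days and below it at the second.

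At day 5, Hspa1b and Hsph1 were higher with RANKL, which is 2 of 55 members. That is 3.64% against 0.918% of all probe sets (0.515% higher). With the brighter 50% of probe sets tested alone, 244 of 6211 passed. Hspa1b was higher by 2.25 ± 0.39 (limma adjusted p = 0.0232), with 122 and 208 against 8.35, and Hsph1 by 1.10 ± 0.21 (limma adjusted p = 0.0371), with 2896 and 3098 against 1385. Both rest on 1 control array. On it Hspa8, Cct2, Cct6a, Dnajb1, Dnaja1, Hspa1a, Hspb2 and Hspbp1 also had their lowest signals of all 15 arrays. Dnajc5, Dnajc8 and Hspb11 instead had their highest signals of all 15 arrays on it (1008, 6875 and 770). The share of all probe sets lowest or highest on that array was not computed. Over all probe sets the median difference at day 5 was 0.11, and over the cytosolic members it was 0.33, or 0.18 without RANKL day 5 replicate 1 and 0.17 after quantile normalization. The Hspa1b value depended on the pseudocount, since its control signal is dim. It was 1.27 and did not pass with a pseudocount of 100, and it was 4.1 with a pseudocount of 1. Without RANKL day 5 replicate 2, neither passed. The Hsph1 call was lost in 12 of 23 settings, among them those without 1 array of control day 2, 3 or 4 or of RANKL day 2, with values of at least 1.05 throughout.

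Cct2 (1.27 ± 0.35), Dnajb1 (1.04 ± 0.30) and Dnajb9 (1.04 ± 0.51) had the next largest differences at day 5 and did not pass. At an unadjusted limma p under 0.05 there were 14 members, or 25.5% against 14.2% of all probe sets. Of the cytosolic members 28 were positive and 10 negative, or 73.7% positive against 62.5% of all probe sets, while 5 of the 7 ER members and 5 of the 7 mitochondrial ones were negative, with medians of -0.24 and -0.06. Hspd1 was the highest mitochondrial value at 0.88 ± 0.36 (limma adjusted p = 0.295). Whether the RANKL effect differed between days 4 and 5 was tested after the values were seen, and 0 of 55 members passed, against 0.00805% of all probe sets, with 12 members (21.8%, against 9.9% of all probe sets) at an unadjusted limma p under 0.05. Hspa1b came nearest, at 3.16 ± 0.50 (limma adjusted p = 0.2). It passed without RANKL day 5 replicate 1 (3.48, limma adjusted p = 0.027), with a pseudocount of 1 (5.22) and with the upper 50% of probe sets. The late minus early RANKL effect also called 0 members, against 0.0403%, with 6 (10.9%, against 8.03%) at an unadjusted limma p under 0.05.

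**Figure D4:**
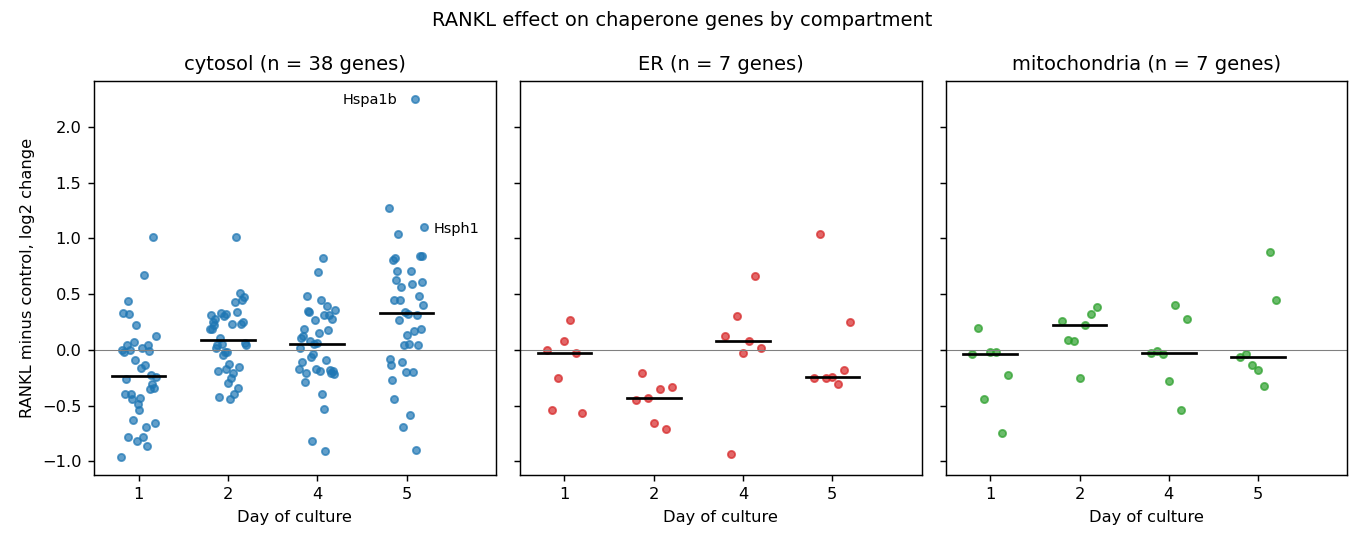
RANKL minus control difference (log2 scale) of each member at days 1, 2, 4 and 5, in 1 panel for each compartment; points are genes, spread sideways for legibility, and black bars are medians. The cytosolic median is highest at day 5 (0.33, or 0.18 without RANKL day 5 replicate 1), where Hspa1b and Hsph1 stand past the threshold. At day 2 all 7 ER genes are below 0, while 51.2% of all probe sets are above it.

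Genes that work with these chaperones were followed in 7 lists, whose counts stand beside 13.1% higher and 9.6% lower among all probe sets and were not tested against them. With culture time in both arms, 0 of 18 represented cochaperones of HSP90 and HSP70 rose and 6 fell. The 5 largest falls were those of Stip1, which links HSP70 to HSP90 (-0.98 ± 0.11), Fkbp4, an HSP90-bound peptidyl-prolyl isomerase (-0.87 ± 0.10), Stub1, the ubiquitin ligase CHIP (-0.74 ± 0.12), and the exchange factors Bag1 (-0.63 ± 0.09) and Bag2 (-0.59 ± 0.15, limma adjusted p = 0.0169). The list's median was -0.17. Of 8 partners of the CCT ring, the ring subunit gene Tcp1 (-0.51 ± 0.14) and the prefoldin gene Pfdn6 (-0.57 ± 0.14) fell. Of 3 represented heat shock factor genes 0 passed, with a smallest limma adjusted p of 0.15. Of 3 other heat shock responsive genes, Atf3, a stress-induced transcription factor, rose by 1.47 ± 0.38.

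Of the 9 represented genes in the list of ER stress signalling, 6 rose with culture time and 0 fell, with a median of 0.83. Whether these rises came from stress in the ER was not tested. The 5 largest rises were those of Ddit3, the transcription factor CHOP (2.52 ± 0.43), Trib3 (2.43 ± 0.43), Atf6, a membrane-bound sensor (1.43 ± 0.16), Ppp1r15a, which restores translation (1.34 ± 0.21) and Atf4, which switches on amino acid stress genes (0.83 ± 0.19). Of 32 ER folding and quality control genes, 4 rose and 6 fell. The rises were led by Ero1a, an oxidase for disulfide bonds (1.64 ± 0.19), and Sec63, a translocon J protein (0.66 ± 0.17). The falls were led by Vcp, the ATPase that extracts proteins for degradation (-1.12 ± 0.14), Manf, a BiP-binding factor (-1.03 ± 0.12), and Creld2 (-0.69 ± 0.13).

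Among 21 mitochondrial import and protein quality genes, 3 rose and 11 fell, with a median of -0.40. Tomm40, the channel of the outer membrane, had the largest fall (-1.02 ± 0.14), followed by Timm17b of the inner membrane translocase (-0.67 ± 0.11), the protease gene Clpp (-0.65 ± 0.13) and the small carrier gene Timm9 (-0.64 ± 0.15). Lonp1, the matrix protease, rose by 1.06 ± 0.20. With RANKL over the 4 days 0 genes of any of these 7 lists passed, against 1.09% of all probe sets. At day 5, where 0.918% of all probe sets passed, the exception was Ero1a, lower by 2.16 (limma adjusted p = 0.0311). That call rests on the 1 control array of day 5.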

How the data were processed

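Each of the 15 samples was hybridised to 1 Affymetrix array. The deposited values are linear intensity signals made by the authors with MAS5, per the submitters' processing notes; its version is not given in the sources used here, and each array's 2% trimmed mean is 500. The small number of arrays limits the precision. Of 12488 probe sets, 66 controls were left out. log2(signal + 32) was fitted with limma 3.58.1 in R 4.3.3, with 1 mean for each of 9 groups, an intensity trend and Benjamini-Hochberg adjustment over 12422 probe sets, two-sided. The 3 groups of 1 array were assumed to vary like the others. Probe sets were named from the platform annotation. The 15 arrays include none of RANKL cells at day 3. The members, the gene lists and their order were chosen with earlier results of these data known. Named are the members past the threshold, a panel of textbook chaperones, the members of largest change in each compartment, and at most 5 genes of a list. The fit was tested on simulated data. Other settings tried were a pseudocount of 1 or 100, quantiles made equal between arrays, a restriction to the brighter 50% of probe sets, no trend, day 3 counted as late, the replicate number as a block, mean over probe sets, and each array left out in turn; the beta-actin ratio and both day 1 arrays were added after seeing the data.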

Additional observations from a re-analysis of the deposited data

How the results depend on the processing

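Of the 54 calls of single genes followed through the alternatives 0 reversed and 6 were kept in every one, and of the 21 calls with culture time in both arms 3 were (Hsph1, Hspa1b and Hspb11). Of 36 compartment medians 14 changed sign. With the beta-actin ratio as a covariate the counts fell to 5 in both arms, 2 in control cells, 5 in RANKL cells, 1 for control day 3 against day 2 and 1 for RANKL at day 5. With the upper 50% of probe sets they were 18 in RANKL cells, 4 for control day 3 against day 2, 1 for RANKL over 4 days and 1 for day 5 against day 4, where a pseudocount of 1 also gave 1. With day 3 added to the late control days the control count was 12, and without both day 1 arrays it was 3, when RANKL over 4 days gave 1. At day 5, a pseudocount of 100 and no trend gave 1 each. Replicate numbers did not pair the samples (correlations between -0.17 and 0.12 over 15 pairs of groups); with the replicate number as a block the counts were 5 in RANKL cells, 7 for RANKL day 4 against day 2 and 1 at day 5. Leaving out 1 array gave counts of 16 to 23 in both arms, 3 to 9 in control cells, 3 to 11 in RANKL cells, 0 to 1 for RANKL over 4 days, 0 to 3 at day 5, 0 to 1 for day 5 against day 4, 0 to 3 for control day 3 against day 2 and 2 to 12 for RANKL day 4 against day 2, and 0 in all for days 1, 2 and 4 and the late minus early effect. Groups of 1 array at days 1 and 5 limit every comparison that uses them, and the causes of these moves were not tested.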
